A study of Mus musculus with 8 samples.

Results

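Chromatin loops, TADs and CTCF peaks were examined at 9 Hedgehog genes in mouse ES cells and in the epithelium and the fiber cells of the newborn lens. The genes are the ligands Shh, Ihh and Dhh, the receptor Ptch1, the signal transducer Smo, the transcription factors Gli1, Gli2 and Gli3, and Lmbr1, the distant neighbor of Shh. They were chosen by name out of 20191 protein-coding genes of at least 1 kb in the gene table, not by a threshold on any value. A loop was assigned to a gene when one of its anchors overlapped the gene body widened by 5 kb at each end. A TAD, a block of chromatin with frequent contacts inside it, was assigned when it overlapped the gene body itself, as was a CTCF peak.

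Hedgehog ligands are secreted signals that pattern the neural tube, limb, bone and gonad. In their absence Ptch1 holds Smo inactive, and when a ligand binds Ptch1, Smo is released and the Gli factors switch on their target genes, Gli1 and Ptch1 among them. Shh is a classic case of remote control, since an enhancer for its activity in the limb lies far away inside an intron of Lmbr1. CTCF binds DNA and, together with cohesin, marks many loop anchors and TAD borders.

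Hi-C was performed on wild type v6.5 ES cells grown with LIF and on epithelium and fiber cells microdissected from CD-1 lenses at postnatal day 0.5, and every cell type had 2 replicates. A lens replicate pooled 30 lenses and an ES cell replicate held about 2000000 cells, all fixed in 2.0% formaldehyde. The replicates were merged before calling, so 1 list of loops and 1 list of TADs stood for each cell type, with 8459 loops in ES cells, 8005 in the epithelium and 7682 in fiber cells. CTCF ChIP-seq gave 1 list for each lens cell type, with 16433 peaks in the epithelium and 23868 in fiber cells, and none was analysed here for ES cells. With 1 list each, replicate error is not known, so the cell types are described side by side without a test. The lists hold no expression values, so neither the identity of the cells nor the activity of these genes could be checked here. A loop missing from a list was not called there, which does not show that the contact was absent.

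A loop is given with its observed contacts, the contacts expected from the donut of pixels around it, and their ratio with an exact Poisson 95% interval, which covers counting error only. Contacts at anchors of 5, 10 and 25 kb are summed over pixels of different area, so ratios were ranked only against loops of the same list with the same anchor width. All coordinates are mm10, which is the same build as the GRCm38.p6 gene table.

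At least 1 loop was found at 5 of the 9 genes in ES cells, at 4 in the epithelium and at 5 in fiber cells. Among all protein-coding genes the shares with a loop were 39.3% in ES cells, 38.2% in the epithelium and 36.5% in fiber cells. Shh, Dhh and Lmbr1 had a loop in every list, while Smo, Gli1 and Gli2 had none in any. These calls depend on the widening of the gene body. Without it only Lmbr1 kept a loop in every list, since Shh had 0 in fiber cells and Dhh had 0 in the epithelium. With 25 kb, Gli1 gained 1 loop in the epithelium, Gli2 gained 2 in the epithelium and 1 in fiber cells, and Gli3 gained 1 in ES cells. Ihh was looped in ES cells only, Gli3 in both lens lists but not in ES cells, and Ptch1 in ES cells and fiber cells. Counting the loop between Shh and Lmbr1 once, there were 13 loops in ES cells and 6 in each lens list. They ranged from 60 to 9350 kb in ES cells, from 120 to 840 kb in the epithelium and from 105 to 840 kb in fiber cells. Anchors of 5 kb were held by 7 of them in ES cells, 1 in the epithelium and 2 in fiber cells. Loops of that width numbered 3350 in the whole ES cell list, 1467 in the epithelium and 1226 in fiber cells. The bearing of this difference on loops listed in ES cells only was not tested. Within 10 kb at both anchors, 4 of the 6 loops of the epithelium had a counterpart in fiber cells, and 1 of the 13 ES cell loops had a counterpart in a lens list. Within 25 kb these counts were 6 of 6 and 3 of 13. The shares of all loops of the lists under the same rule are not given here. Whether the loops at these genes are shared more or less than others is therefore not known.

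**Figure D1:**
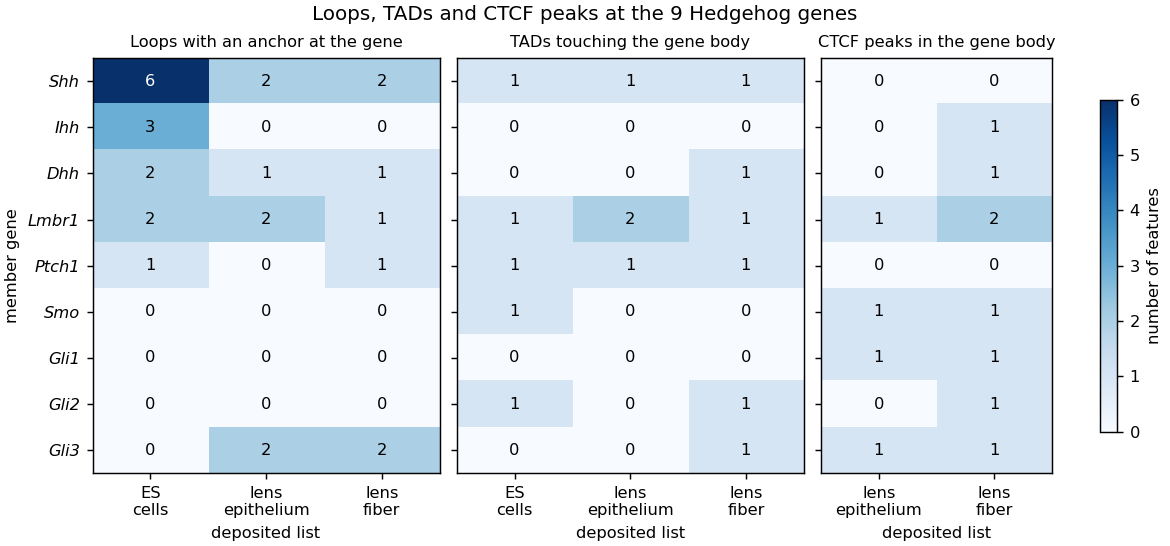
Number of loops with an anchor at each gene (left), of TADs touching its body (middle) and of CTCF peaks in its body (right), one row per gene and one column per deposited list, with darker tiles for higher numbers. Shh stands out with 6 loops in ES cells against 2 in each lens list, and the row of Gli3 is empty in ES cells and holds 2 loops in each lens list.

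Shh, the ligand of limb and neural tube patterning, lies at chr5:28456840-28467101 and had 6 loops in ES cells, 2 in the epithelium and 2 in fiber cells. The ES cell loops fell into 2 kinds. In 4 of them the far anchor overlapped a homeobox gene, namely En2, Mnx1, Hmx1 or Msx1, which encode developmental transcription factors. The other 2 ran toward Lmbr1, 1 of them to Lmbr1 itself and 1 into the gene-poor stretch before it. Both had a counterpart in each lens list within 25 kb at both anchors, but none within 10 kb.

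The loop from Shh to En2 spanned 295 kb and held 75 contacts where 5.63 were expected, a ratio of 13.3 (95% interval 10.5 to 16.7). The loop from Shh to Mnx1 spanned 1015 kb and held 24 contacts against 1.75 expected, a ratio of 13.7 (8.80 to 20.4). Both had anchors of 5 kb, and their ratios were above those of 98.6% and 98.7% of the 3350 ES cell loops with anchors of that width. The loop from Shh to Hmx1 spanned 6925 kb, with 15 contacts against 1.81 expected and a ratio of 8.28 (4.64 to 13.7). The loop from Shh to Msx1 spanned 9350 kb, with 14 contacts against 1.83 expected and a ratio of 7.67 (4.19 to 12.9). These counts are small, close to the lowest of the whole ES cell list, which is 12, and both loops had anchors of 25 kb. None of the 4 loops had a counterpart in either lens list, even when midpoints were allowed to lie 25 kb apart. The study reports a lower share of contacts between chromosomes in ES cells than in either lens cell type. The bearing of that difference on these calls was not tested.

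The Hmx1 and Msx1 loops made Shh the only one of the 9 genes with a loop above 3 Mb. Such a loop was found at 2.00% of all protein-coding genes in ES cells, at 0.357% in the epithelium and at 0.302% in fiber cells. No lens loop at any of the 9 genes was longer than 840 kb.

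The partners of Shh were also joined to one another in ES cells. En2, Mnx1, Hmx1 and Msx1 form 6 pairs without Shh, and 5 of these had a loop in the ES cell list, while the pair of Mnx1 and Msx1 had none. The 4 pairs with Shh are joined by the loops that picked these genes and are not counted here. The choice to look at the 6 pairs was made after the loops of Shh were seen, and the share among other gene pairs at like distances was not computed. With anchors of 10 kb, En2 and Msx1, 9660 kb apart, shared 14 contacts against 0.631 expected, a ratio of 22.2 (12.1 to 37.2). With anchors of the same width, Mnx1 and Hmx1, 5920 kb apart, shared 16 contacts against 0.757 expected and had a ratio of 21.1 (12.1 to 34.3). No loop of the ES cell list has fewer than 12 contacts. With so few expected contacts a loop could therefore be listed only with a high ratio, and the intervals do not cover this selection. No pair was joined in either lens list. En2 had 5 loops in ES cells and none in the lens lists, and Mnx1 had 3 and none. Hmx1 had 11 loops in ES cells and 1 in each lens list, and Msx1 had 7 and 1 in each, with lens loops of 110 to 270 kb.

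**Figure D2:**
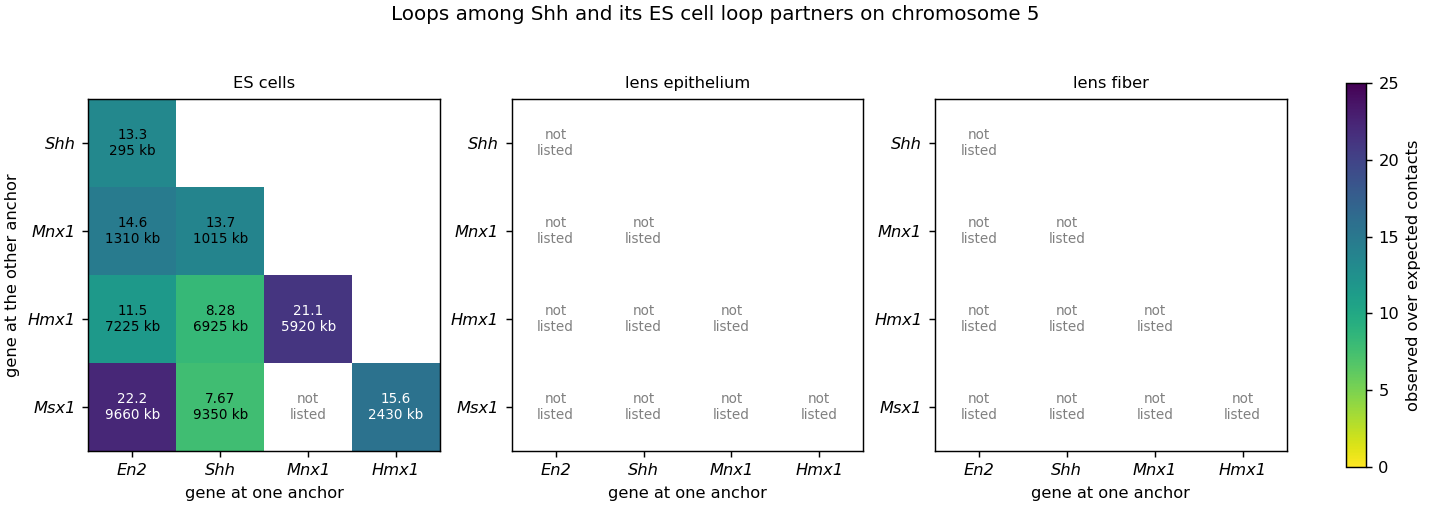
Ratio of observed to expected contacts (color and upper figure) and size in kb (lower figure) for the loop joining each pair of Shh and the genes at the far anchors of its ES cell loops, with one panel per cell type. In ES cells the 4 pairs with Shh, which picked the genes, and 5 of the 6 other pairs are filled, and in both lens panels every pair is marked as not listed. Anchors are 5, 10 or 25 kb wide, so colors are not ranked between pairs.

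A loop between Shh and Lmbr1 was listed in every cell type. The limb enhancer inside Lmbr1 was not located here, so whether any anchor of this loop covers it is not known. The loop spanned different lengths in the lists. In ES cells it spanned 810 kb, with 54 contacts against 16.2 expected and a ratio of 3.33 (2.50 to 4.34). It spanned 840 kb in the epithelium, with 42 contacts against 10.1 expected and a ratio of 4.18 (3.01 to 5.65). In fiber cells it spanned 840 kb as well, with 24 contacts against 5.09 expected and a ratio of 4.71 (3.02 to 7.02), and the largest of its 4 FDR values was 0.0677. The anchors were 10, 10 and 5 kb wide in ES cells, the epithelium and fiber cells. The lens loops matched each other within 10 kb, but the ES cell loop matched them only within 25 kb, because its anchors at chr5:28460001-28470000 and chr5:29270001-29280000 lay on the inner side of those of the epithelium loop, chr5:28450001-28460000 and chr5:29290001-29300000. The ES cell anchor covered most of the gene body of Shh, whereas the fiber anchor, chr5:28450001-28455000, ended 1.84 kb short of it.

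CTCF peaks of both lens lists lay at both anchors of the 840 kb loop. At the Shh anchor the summit was at chr5:28451418 in the epithelium, with a fold enrichment of 8.82, and at chr5:28451389 in fiber cells, with 9.59. At the Lmbr1 anchor, inside the gene body of Lmbr1, the summits were at chr5:29293358 with 7.14 and chr5:29293391 with 7.76. Fiber cells had 2 more peaks at the place of the ES cell anchors, at chr5:28469930 with a fold of 6.23 and at chr5:29274849 with a fold of 4.54, and neither overlapped a peak of the epithelium. No CTCF peak fell in the gene body of Shh in either list. With the body widened by 5 kb, fiber cells had 1 and the epithelium still had 0.

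A second loop ran from Shh toward Lmbr1 and ended where the gene table has no protein-coding gene within 100 kb. It spanned 575 kb in ES cells with 134 contacts against 51.9 expected, 550 kb in the epithelium with 29 against 7.80, and 560 kb in fiber cells with 40 against 10.8. The ratios were 2.58 (2.16 to 3.06) with 25 kb anchors in ES cells, and 3.72 (2.49 to 5.34) and 3.70 (2.64 to 5.04) with 10 kb anchors in the lens lists. The lens loops matched each other within 10 kb, but the ES cell loop matched them only within 25 kb. The far anchor held no CTCF peak of either lens list. The near anchor of the lens loops overlapped 1 fiber peak and 0 epithelium peaks, and that of the ES cell loop 2 fiber peaks and 1 epithelium peak. In the lens lists the near anchor, chr5:28470001-28480000, lay just beyond the gene and counted through the widening of 5 kb. Without widening, Shh kept 6 loops in ES cells, 1 in the epithelium and 0 in fiber cells.

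The interval from the outer end of Shh to the outer end of Lmbr1 measured 922 kb. Only Rnf32, a ring finger gene beside Lmbr1, lay between them, and the 726 kb from Shh to Rnf32 held no protein-coding gene. Loops with both anchors over this interval numbered 2 in ES cells, 2 in the epithelium and 3 in fiber cells. The count for fiber cells leaves out the 840 kb loop, whose Shh anchor ended before the interval began. It includes 2 inner loops of 100 kb, with midpoints at 356 and 456 kb and at 606 and 706 kb from the end of Shh, which had 101 contacts against 24.4 expected and 39 against 9.34. Their ratios were 4.14 (3.37 to 5.03) and 4.18 (2.97 to 5.71), and no CTCF peak lay at their anchors. The interval held 1 CTCF peak in the epithelium and 3 in fiber cells.

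One TAD covered most of the interval in every cell type. It measured 875 kb in ES cells, chr5:28465001-29340000, and its border fell inside Shh, so that 20.5% of the gene body lay within the TAD. It measured 850 kb in the epithelium, chr5:28450001-29300000, and 870 kb in fiber cells, chr5:28450001-29320000, and both held the whole of Shh. The other border cut Lmbr1 in all 3 lists, with 74.1% of its body inside the TAD in ES cells, 47.2% in the epithelium and 60.7% in fiber cells. TAD borders are given to 5 kb, so the shift of 15 kb at Shh between ES cells and the lens amounts to a few bins.

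**Figure D3:**
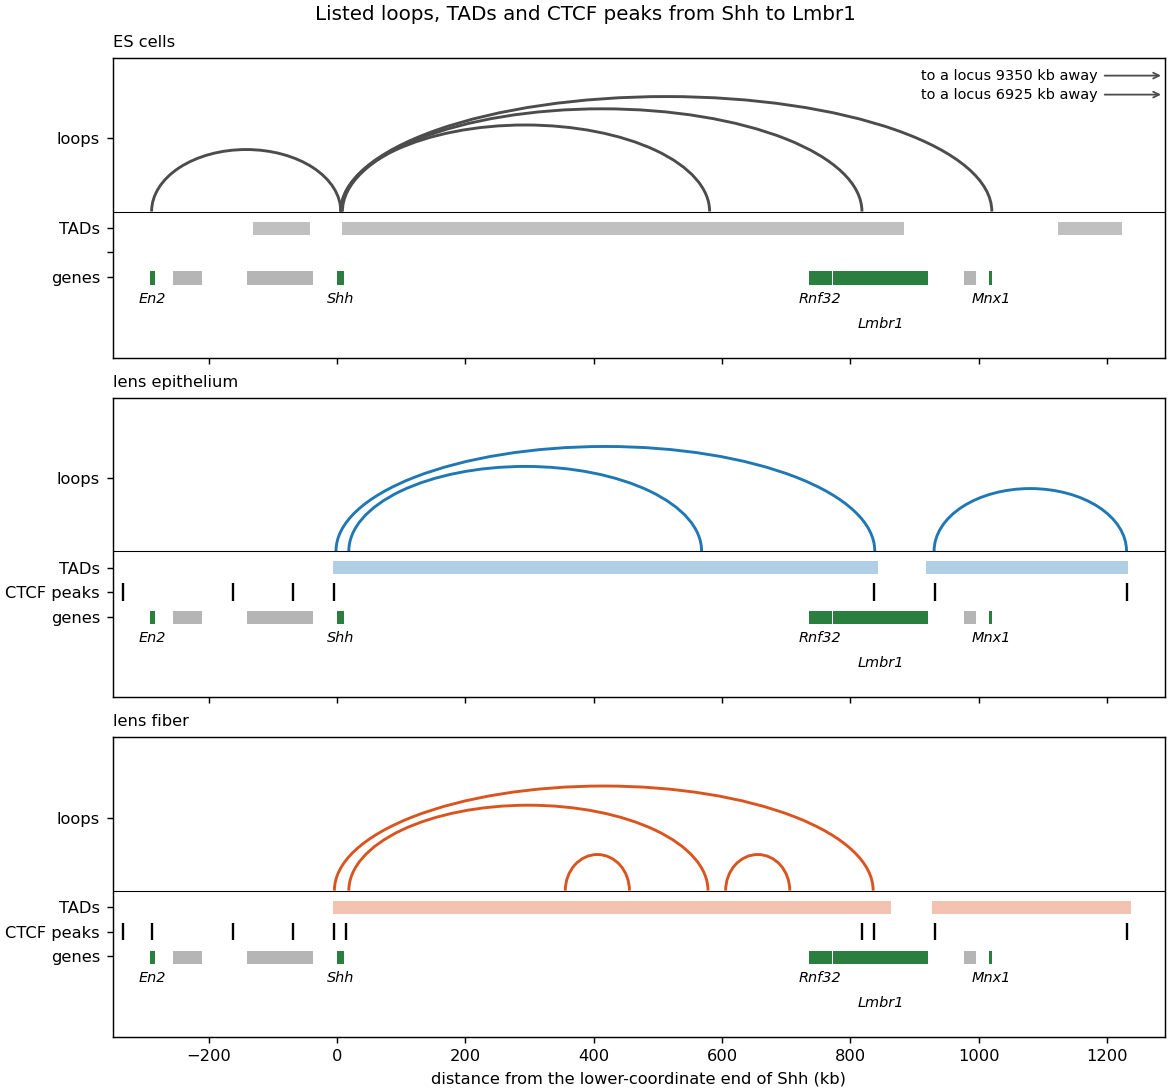
Loops (arcs), TADs (colored bars), CTCF peak summits (black ticks, lens lists only) and protein-coding genes (green where named, gray otherwise) against the distance in kb from the lower-coordinate end of Shh, with one panel per cell type. Arcs are drawn for loops with an anchor in the interval from Shh to Lmbr1, and arrows stand for the ES cell loops of 6925 and 9350 kb, while the 300 kb ES cell loop of Lmbr1 starts just outside the interval and is not drawn. The arcs toward Lmbr1 recur in all panels, the arcs to En2 and Mnx1 are seen in ES cells only, and the small inner arcs in fiber cells only.

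Lmbr1, which encodes a membrane protein and hosts the limb enhancer of Shh, lies at chr5:29229802-29378421. Beside the loop to Shh it had a loop of 300 kb away from Shh, ending at or near the ubiquitin ligase gene Ube3c. In ES cells this loop held 51 contacts against 14.95 expected, a ratio of 3.41 (2.54 to 4.48), and in the epithelium 106 against 36.7, a ratio of 2.89 (2.37 to 3.495). This was the single ES cell loop with a counterpart within 10 kb in a lens list. Fiber cells had a loop of 275 kb to the same far anchor as the epithelium, but its near anchor lay 21.6 kb outside Lmbr1 and was not counted. Lens CTCF peaks were found at both anchors of the 300 kb loop.

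Ihh, the ligand that governs cartilage growth in the long bones, lies at chr1:74945315-74951672 and was looped in ES cells only. All 3 loops had anchors of 5 kb, a width at which the lens lists hold fewer loops than the ES cell list. They shared one anchor, chr1:74950001-74955000, which covers the promoter. They reached 155 kb to Wnt10a, a Wnt ligand gene, 60 kb to Cryba2, which encodes a beta-crystallin of the lens, and 65 kb in the other direction to the DNA repair gene Nhej1. Contacts were 31 against 8.39 expected, 78 against 24.3 and 45 against 19.6. The ratios of 3.69 (2.51 to 5.24), 3.21 (2.54 to 4.01) and 2.29 (1.67 to 3.06) were above those of 44.0%, 29.1% and 4.09% of ES cell loops with 5 kb anchors, so they ranked in the lower part of the list. In ES cells 4 more loops, of 525, 3300, 17900 and 80850 kb, had an anchor 45.3 kb from Ihh and were not counted, and 3 of them passed over the gene. The nearest loop anchor to Ihh was 185 kb away in the epithelium and 388 kb away in fiber cells.

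The promoter of Ihh, from 250 bases before to 50 after the start (RefSeq, GRCm38.p6, chr1:74951623-74951922, minus strand), is shown because the shared anchor of the ES cell loops lies over it. The transcribed bases are in capitals, and 72.7% of the bases are G or C.
Ihh promoter: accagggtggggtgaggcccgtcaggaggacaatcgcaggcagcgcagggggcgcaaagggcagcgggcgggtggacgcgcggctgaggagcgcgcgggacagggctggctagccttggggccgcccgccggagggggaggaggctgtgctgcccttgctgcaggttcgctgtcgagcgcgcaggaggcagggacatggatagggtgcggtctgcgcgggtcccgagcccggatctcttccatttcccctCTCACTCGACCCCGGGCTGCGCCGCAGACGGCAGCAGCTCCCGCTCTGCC

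Ihh held the strongest CTCF peak of the 9 genes in the gene body, a peak of fiber cells with its summit at chr1:74949003, a fold enrichment of 11.1 and a −log10 q of 25.7. Its fold was above that of 93.5% of the fiber peaks. No epithelium peak lay there, and the nearest summit of that list was 18.4 kb away. No TAD touched Ihh in any list.

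Dhh, the ligand of the testis and of peripheral nerve sheaths, lies at chr15:98881615-98898562 and had 2 loops in ES cells, 1 in the epithelium and 1 in fiber cells. In ES cells one loop joined Dhh to Wnt1, another Wnt ligand gene, over 105 kb, with 63 contacts against 15.3 expected and a ratio of 4.12 (3.16 to 5.27). The other reached 200 kb to the chaperone gene Dnajc22, with 40 contacts against 6.91 expected and a ratio of 5.79 (4.13 to 7.88), above that of 84.4% of ES cell loops with 5 kb anchors. Both started from the anchor over the Dhh promoter. The lens loops ran to one common far anchor, chr15:98995001-99000000, with Tuba1c as the nearest gene, 29.9 kb away. They spanned 120 kb in the epithelium, with 21 contacts against 4.27 expected and a ratio of 4.92 (3.05 to 7.52), and 105 kb in fiber cells, with 27 against 6.21 and a ratio of 4.34 (2.86 to 6.32). Neither lens loop had an ES cell counterpart, even at 25 kb, and the far anchors of the Dhh loops differed between ES cells and the lens. Yet the lens far anchor was also listed in ES cells, in a loop of 50 kb with 48 contacts against 17.6 expected. The other anchor of that loop lay 46.4 kb from Dhh, so it was not counted. In the epithelium a similar loop of 50 kb was listed as well, with 58 contacts against 24.1 expected. The near anchor of the epithelium loop lay 1.61 kb outside Dhh and counted through the widening of 5 kb. A fiber TAD of 110 kb, chr15:98890001-99000000, ended at the same far anchor and held 50.5% of the gene body. A fiber CTCF peak lay in the gene body with its summit at chr15:98892329 and a fold of 4.68, at the near anchor of the fiber loop.

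**Figure D4:**
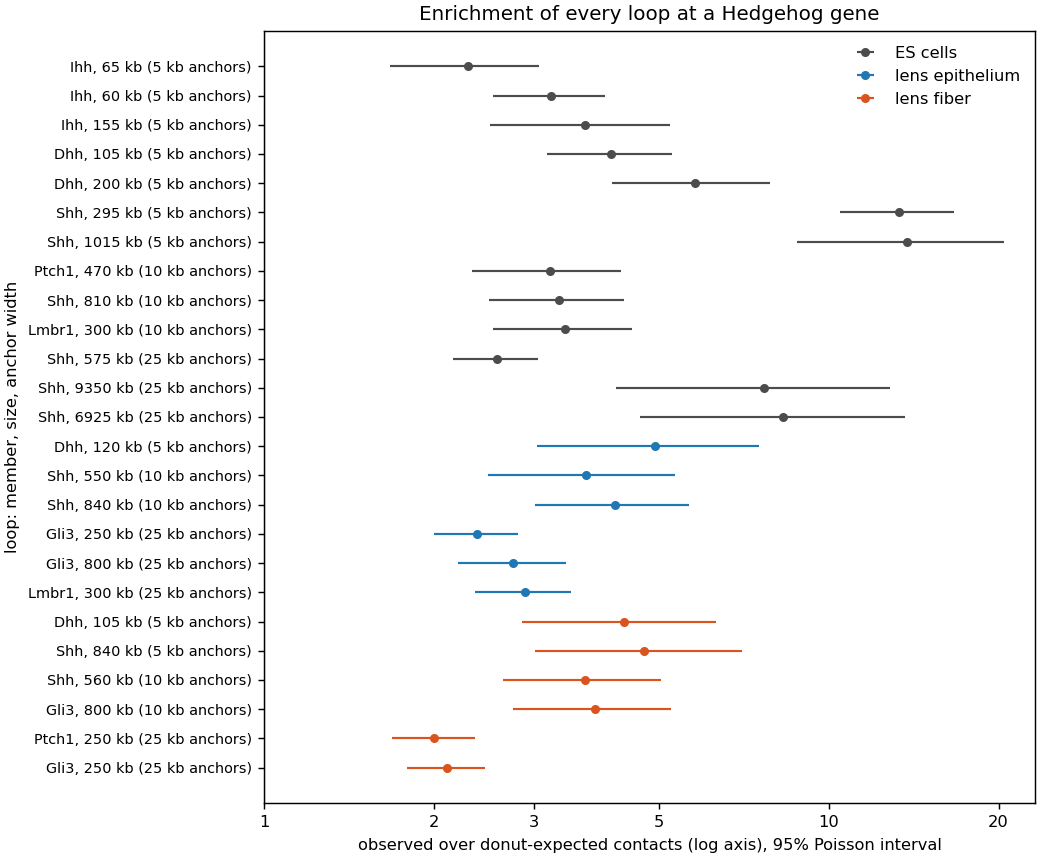
Ratio of observed to expected contacts (log axis) for each of the 25 loops at the 9 genes, with exact Poisson 95% intervals as bars and one color per cell type, sorted by anchor width and then by ratio within each cell type. Within ES cells, the Shh loops to En2 and Mnx1 have the highest ratios of the loops shown with 5 kb anchors, 13.3 and 13.7, and those to Hmx1 and Msx1 the highest with 25 kb anchors, 8.28 and 7.67.

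Ptch1, the receptor that holds Smo inactive, lies at chr13:63508328-63573460 and had 1 loop in ES cells, none in the epithelium and 1 in fiber cells. The ES cell loop spanned 470 kb to an anchor 18.3 kb from Hsd17b3, a steroid dehydrogenase gene, with 45 contacts against 14.1 expected and a ratio of 3.20 (2.33 to 4.28). The fiber loop spanned 250 kb to the helicase gene Ercc6l2, with 139 contacts against 69.6 expected. Its ratio of 2.00 (1.68 to 2.36) was above that of 5.68% of fiber loops with 25 kb anchors. Large TADs of similar extent held the whole gene in ES cells, 660 kb, and in fiber cells, 645 kb. In the epithelium a TAD of 470 kb, chr13:63565001-64035000, began inside Ptch1, close to its promoter, and held 13.0% of the gene body. No CTCF peak lay in Ptch1, and the nearest summits were 37.1 kb away in the epithelium and 16.5 kb away in fiber cells.

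A promoter of Ptch1 (RefSeq, GRCm38.p6, chr13:63565686-63565985, minus strand) is shown because it lay under the ES cell anchor and the fiber anchor. It lies inside the gene body, which runs on to chr13:63573460, so it is not at the outer end of the gene. Of the 7 promoters of the 9 genes in the table it was also the only one with a match to the CTCF core consensus, searched on both strands with up to 2 mismatches. The match is in capitals. Such a match was present in 29.8% of all 32851 promoters of the table and in 66.8% of the 1457 that overlap a fiber CTCF peak, and no peak was listed over this one.
Ptch1 promoter: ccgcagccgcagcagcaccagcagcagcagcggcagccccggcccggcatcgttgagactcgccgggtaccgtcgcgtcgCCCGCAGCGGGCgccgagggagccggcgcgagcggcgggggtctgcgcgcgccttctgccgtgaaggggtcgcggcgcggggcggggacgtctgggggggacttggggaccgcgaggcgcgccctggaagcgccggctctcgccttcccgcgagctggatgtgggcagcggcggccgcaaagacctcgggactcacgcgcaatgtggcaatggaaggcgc

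Smo, the transducer released by Ptch1, lies at chr6:29735497-29761366 and had no loop in any list. The nearest anchors were 205 kb away in ES cells and 63.6 kb away in both lens lists. An ES cell TAD of 215 kb began inside the gene and held 43.9% of it. Smo had 1 CTCF peak in each lens list and these overlapped, with folds of 5.02 in the epithelium and 6.64 in fiber cells.

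Gli1, the factor whose own transcription is a readout of the pathway, lies at chr10:127329882-127341579 and had neither a loop nor a TAD in any list. It too had 1 CTCF peak shared by both lens lists, with folds of 5.07 in the epithelium and 6.71 in fiber cells. The nearest anchor, 8.42 kb away, belonged to an epithelium loop of 100 kb.

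Gli2, the main activator of the pathway, lies at chr1:118834061-119054405 and had no loop at the gene, but in every list a loop ran from one side of it to the other. This loop spanned 315 kb in ES cells, 310 kb in the epithelium and 315 kb in fiber cells, with anchors of 5 kb and at least 20.6 kb from the gene. It held 56 contacts against 7.04 expected in ES cells, 25 against 4.17 in the epithelium and 31 against 5.16 in fiber cells. The ratios of 7.96 (6.01 to 10.3), 6.00 (3.88 to 8.86) and 6.00 (4.08 to 8.52) had overlapping intervals. An ES cell TAD of 300 kb held the whole gene, and a fiber TAD of 195 kb held 79.2% of it.

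A fiber CTCF peak lay over the promoter of Gli2 with its summit at chr1:119053731, a fold of 5.09 and a −log10 q of 5.29, and no epithelium peak overlapped it. The promoter (RefSeq, GRCm38.p6, chr1:119053570-119053869, minus strand) is shown with the 21 bases centred on that summit in capitals. It held no match to the CTCF core consensus.
Gli2 promoter: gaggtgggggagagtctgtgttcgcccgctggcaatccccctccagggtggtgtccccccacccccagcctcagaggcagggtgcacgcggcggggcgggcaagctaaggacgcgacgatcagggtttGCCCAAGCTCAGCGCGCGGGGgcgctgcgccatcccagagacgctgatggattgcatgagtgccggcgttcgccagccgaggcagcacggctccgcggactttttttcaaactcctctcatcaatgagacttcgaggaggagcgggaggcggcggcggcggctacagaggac

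Gli3, which acts mainly as the repressor of the pathway when no ligand is present, lies at chr13:15463723-15730026 and had no loop in ES cells but the same 2 loops in both lens lists. One spanned 800 kb from the start of Gli3 across the neighboring gene-poor region. The nearest gene to its far anchor was AW209491, 11.8 kb away in the epithelium and 21.8 kb away in fiber cells. It held 84 contacts against 30.4 expected in the epithelium, with 25 kb anchors and a ratio of 2.76 (2.20 to 3.42), and 40 against 10.4 in fiber cells, with 10 kb anchors and a ratio of 3.85 (2.75 to 5.25). The other stayed within the gene and joined its start to a point 250 kb into the body. It held 137 contacts against 57.6 expected in the epithelium, a ratio of 2.38 (2.00 to 2.81), and 159 against 75.5 in fiber cells, a ratio of 2.10 (1.79 to 2.46). Both pairs matched within 10 kb, and the intervals of the 250 kb loop, with 25 kb anchors in both lists, overlapped.

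The ES cell list was not empty around Gli3. A loop that began near the same far point and passed over the whole gene was listed in all 3 cell types, with 43 contacts against 10.3 expected over 1120 kb in ES cells, 41 against 12.5 over 1100 kb in the epithelium and 51 against 10.7 over 1110 kb in fiber cells. Its anchor lay 30.0 kb beyond the gene and was not counted as one at Gli3. What the ES cell list lacked was the anchor at the start of Gli3, and the nearest ES cell anchor was 19.98 kb from the gene. A fiber TAD of 310 kb held the whole of Gli3, and no TAD touched it in the other lists. The CTCF peaks in the gene body differed, at chr13:15637001 with a fold of 4.16 in the epithelium and at chr13:15715184 with a fold of 4.56 in fiber cells. The fiber peak lay at the inner anchor of the 250 kb loop. Both peaks were weak, with folds above those of 6.42% and 10.2% of their lists and −log10 q of 2.95 and 3.70. Outside the gene, some peaks lay at like positions in both lists and others did not.

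The promoter of Gli3 (RefSeq, GRCm38.p6, chr13:15463473-15463772, plus strand) is shown because the common anchor of both lens loops lies over it, with the transcribed bases in capitals.
Gli3 promoter: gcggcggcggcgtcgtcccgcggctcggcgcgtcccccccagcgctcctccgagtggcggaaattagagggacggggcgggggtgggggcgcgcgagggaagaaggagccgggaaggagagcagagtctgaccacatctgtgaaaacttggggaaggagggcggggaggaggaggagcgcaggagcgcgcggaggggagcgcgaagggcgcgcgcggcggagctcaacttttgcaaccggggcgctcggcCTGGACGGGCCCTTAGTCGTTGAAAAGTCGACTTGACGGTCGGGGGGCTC

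**Figure D5:**
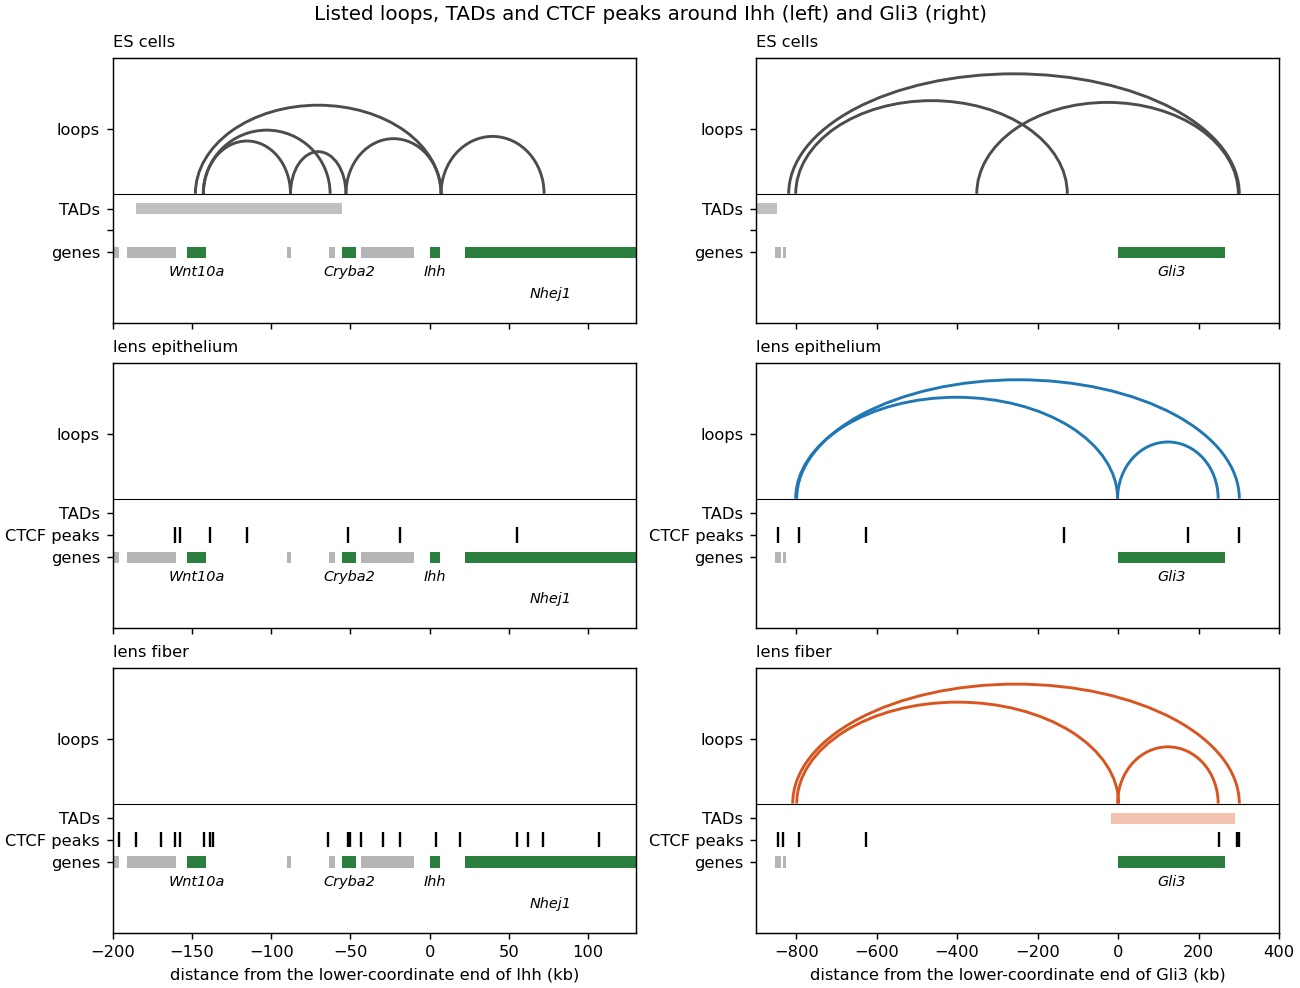
Loops (arcs, where both anchors are in the window), TADs (colored bars), CTCF peak summits (black ticks, lens lists only) and protein-coding genes (green where named, gray otherwise) around Ihh (left) and Gli3 (right), against the distance in kb from the lower-coordinate end of each gene, with one row per cell type. Around Ihh arcs are drawn in ES cells only. At Gli3 the arc over the whole gene recurs in every row, while arcs from the start of the gene are seen in the lens rows only.

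The Gli site TGGGTGGTC was searched on both strands of the 7 promoters and was in none of them. It was found in 0.253% of all promoters of the table. Among these 7, an ES cell anchor lay over the promoters of Ihh, Dhh and Ptch1, an epithelium anchor over those of Lmbr1 and Gli3, and a fiber anchor over those of Ptch1 and Gli3. Shh and Gli1 have no promoter in the table, so whether an anchor lies over theirs was not checked.

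At least 1 TAD touched 5 of the 9 genes in ES cells, 3 in the epithelium and 6 in fiber cells, where the shares of all protein-coding genes were 42.2%, 22.3% and 30.9%. CTCF peaks in the gene body were found at 4 of the 9 genes in the epithelium and 7 in fiber cells, against 23.9% and 35.1% of all genes. In all there were 4 peaks in the epithelium and 8 in fiber cells, and 4 of the fiber peaks remained when that list was reduced to the 16433 peaks with the highest −log10 q, the peak at the Gli2 promoter not among them. Both anchors carried CTCF peaks from the matching list in 2 of the 6 loops of the epithelium and in 1 of the 6 loops of fiber cells, where the shares over the whole lists were 15.7% and 39.1%. The loops with peaks at both anchors were the 840 kb loop of Shh in both lists and the 300 kb loop of Lmbr1 in the epithelium.

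The share of genes with a loop or a peak rose with gene length. Among genes under 20 kb, which include Shh, Ihh, Dhh and Gli1, 28.8% had a loop in ES cells, 25.9% in the epithelium and 24.4% in fiber cells, and 3, 2 and 2 of these 4 had one. Among genes of 20 to 100 kb, which include Ptch1 and Smo, the shares were 44.5%, 42.7% and 40.3%, and 1, 0 and 1 of these 2 had a loop. Among genes above 100 kb, which include Lmbr1, Gli2 and Gli3, the shares were 67.2%, 76.3% and 74.9%, and 1, 2 and 2 of these 3 had a loop. A CTCF peak lay in 10.0%, 29.4% and 65.1% of the genes of these classes in the epithelium, and in 1 of 4, 1 of 2 and 2 of 3 of the Hedgehog genes. In fiber cells the shares were 18.3%, 43.8% and 78.5%, and the Hedgehog genes with a peak numbered 3 of 4, 1 of 2 and 3 of 3. The part of gene length in these counts was not tested.

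A list of 30 other Hedgehog pathway genes was described in the same way. At least 1 loop was found at 16 of them in ES cells, 16 in the epithelium and 15 in fiber cells. These are 53.3%, 53.3% and 50%, against 39.3%, 38.2% and 36.5% of all protein-coding genes. Of the 30 genes, 10 were looped in every list and 8 in none. The median number of loops was 1, 1 and 0.5, and it was 0 in each list over all protein-coding genes. A CTCF peak lay in 10 of the 30 genes in the epithelium and in 19 in fiber cells. These are 33.3% and 63.3%, against 23.9% and 35.1% of all genes. The median length of these genes was 61.0 kb, and that of all genes was 19.5 kb. Among all genes of 20 to 100 kb, 44.5%, 42.7% and 40.3% had a loop in ES cells, the epithelium and fiber cells. A CTCF peak lay in 29.4% of that class in the epithelium and in 43.8% in fiber cells. The part of length was not tested.

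Lrp2, an endocytic receptor that takes up Shh, was the only one of the 30 with a loop above 1 Mb. It had 8 loops in ES cells and 2 in each lens list, where none was longer than 650 kb. The longest ES cell loops ran 35950 kb to Lmx1b and 35550 kb to Wt1, with 14 contacts against 1.37 expected and 14 against 1.01. Both had anchors of 25 kb, and their counts are close to the lowest of the whole ES cell list, which is 12. Its other far anchors lay at the transcription factor genes Dlx1, Dlx2 and Sp5 and at Metap1d, Stk39, Gad1, Abcb11 and 4932414N04Rik. Hhat, the enzyme that attaches palmitate to the ligands, had 4 loops in ES cells, 5 in the epithelium and 3 in fiber cells, with 5 CTCF peaks in each lens list. Gpc3, a glypican that binds the ligands, had 1, 5 and 2 loops. Sufu, the inhibitor that keeps Gli factors in the cytoplasm, had 1 loop of 45 kb in ES cells and in fiber cells and none in the epithelium, and it had 2 CTCF peaks in the epithelium and 6 in fiber cells.

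The loop numbers of Shh, 6 in ES cells and 2 in each lens list, were matched exactly by 7 genes outside its neighborhood. The 5 of these whose longest ES cell loop was closest in size to that of Shh were Bcas3 with 10500 kb, the growth factor gene Igf2 with 11125 kb, Urad with 7760 kb, the homeobox gene Alx4 with 25100 kb and the POU homeobox gene Pou3f3 with 38200 kb. Their longest lens loops were between 180 and 1450 kb. Likeness was measured as the distance between log2(1 + count) over the 3 lists only.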

How the data were processed

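Loops and TADs came from Hi-C (Arima kit) and peaks from CTCF ChIP-seq, for which 200 lenses were microdissected into epithelium and fibers. Per the labels there is 1 ChIP-seq sample per lens cell type, whereas the methods of the study speak of replicates and of a larger amount of chromatin than the 6 µg of the labels, so whether a peak list pools replicates is not known. The authors aligned the Hi-C reads with BWA, merged 2 replicates per cell type and called loops with HiCCUPS and TADs with Arrowhead (Juicer tools 2.13.06 per the file headers). In the deposited loop lists, observed values are raw counts of contacts, and FDR values are q-values. The deposited peaks carry a fold enrichment and a −log10 q-value from MACS2. Read depth is not in these lists and was not used, so differences between the maps in contacts within chromosomes were not taken into account.

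Gene bodies were those of the GRCm38.p6 table, protein-coding and at least 1 kb long. Features overlapped by at least 1 bp, and a loop was shared when both anchor midpoints lay within 10 kb. Ratios were ranked only within one list and anchor width. Genes named were the 9 genes, the genes at far anchors or the nearest within 100 kb, those between Shh and Lmbr1, pathway genes with a loop above 1 Mb or with the most loops or peaks, and the 5 genes most like Shh. The pairs among partners of Shh, the loops just outside the genes and the other far anchors of Lrp2 were added after their values were seen. The genes and lists were chosen with earlier results of these data known. Computation used scipy 1.17.1, pandas 2.3.3 and numpy 2.4.6 under Python 3.11.15, with matplotlib 3.10.9 for drawing, and the overlap rules were tested on simulated data with 2000 loops. Promoters were those of RefSeq, 250 bases before to 50 after the start, present for 7 of the 9 genes and missing for Shh and Gli1.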

Additional observations from a re-analysis of the deposited data

How the results depend on the processing

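Across 24 counts and 65 alternative values, 53 stayed within 1.5 times the reported count. A change of exactly 1.5 times counted as staying. Examples are the epithelium loops, from 6 to 9 with 25 kb of widening, and the fiber peaks, from 8 to 12 with 5 kb. The lens counts of long loops, which were 0 under every setting, are also among those that stayed. With midpoints within 25 kb, 3 of the 13 ES cell loops had a counterpart in the lens in place of 1, and 2 had one when both anchors only had to overlap. Limited to anchors of 5 or 10 kb, the long loops of Shh fell from 2 to 0, the loops of lens epithelium from 6 to 3, and the loops within the interval from Shh to Lmbr1 from 2 to 1 in ES cells and from 3 to 1 in lens fiber cells. TADs that held a whole gene numbered 2 in place of 4 in ES cells, 1 in place of 3 in lens epithelium and 3 in place of 5 in lens fiber cells, and fiber TADs of at least 200 kb numbered 3. With the fiber peak list cut to the size of the epithelium list by its q-values, fiber peaks in the 9 genes fell from 8 to 4, and those at the Gli2 promoter, in Dhh, in Gli3 and 1 of 2 in Lmbr1 were lost. With anchors widened by 5 kb, 2 fiber loops in place of 1 had CTCF peaks at both anchors. At FDR values all below 0.01, the 840 kb fiber loop of Shh and Lmbr1, the 550 kb epithelium loop of Shh and the 65 kb ES cell loop of Ihh were lost. The cause of these changes was not tested. No paired analysis was possible because each Hi-C list pools its replicates and each lens cell type has 1 peak list. Small counts limit the long loops of Shh, which rest on 14 and 15 contacts.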
